A study of Drosophila melanogaster with 17 samples.

Results

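The gene gkt (glaikit, also listed under the names Tdp1, CG8825 and CG8826) was followed across 17 Drosophila eye disc samples. It lies on chromosome arm 2L in the RefSeq annotation of the Release 6 assembly. All probe sets annotated to gkt alone were taken, which gave 3 (1626850_s_at, 1624269_at and 1624274_at) of 18769 probe sets that are not controls. A probe set is a group of short array probes read together as 1 value, and the suffix _s_at marks a set whose probes can match more than 1 transcript. The gene was chosen by its level differences between genotypes, and the disagreement of its probe sets, on these same arrays, so both are given as a description with no test. No threshold was set for that choice.

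The protein made by gkt is the fly tyrosyl-DNA phosphodiesterase, an enzyme that cleaves the bond left when a topoisomerase stays trapped on a DNA end, and that also trims other blocked ends so that polymerases and ligases can finish repair. In the fly embryo gkt was first described for a role in epithelial polarity and in the wiring of neurons. Dp is the partner protein with which E2F factors bind DNA, and E2f1 is the activating E2F factor of the fly, known for switching on replication and repair genes as cells enter S phase.

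Eye imaginal discs were dissected from larvae of the 3rd instar reared at 25 °C, and total RNA was hybridised to Affymetrix Drosophila Genome 2.0 arrays, 1 array per sample. The groups were dDP mutant discs irradiated with 40 Gy of gamma rays and collected 4 h later (3 arrays), untreated dDP mutant discs (3), irradiated discs from which de2f1 had been deleted in the posterior part (3), untreated discs of that de2f1 genotype (3), irradiated wild type discs (2, numbered 1 and 3 in the labels) and untreated wild type discs (3). The labels call these biological replicates and do not say how many larvae each held. The allele of dDP, the driver of the de2f1 deletion and the background of the wild type are not given here. Since de2f1 was removed from the posterior alone and whole discs were taken, the de2f1 samples mix cells with and without the gene. Values are log2 expression values made with RMA, the robust multi-array average, and each difference below is on that log2 scale.

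Dp had log2 values of 8.25 to 8.88 on the irradiated and 8.06 to 8.94 on the untreated dDP arrays, against 10.04 or more on every array of the other genotypes. The dDP to wild type difference of Dp was -1.53 ± 0.21 in irradiated and -1.96 ± 0.19 in untreated discs (standard errors; limma, Benjamini-Hochberg adjusted p = 9.3e-05 and 2.5e-06). E2f1 shares its probe set with another gene and was not analysed here. All 7 eye disc markers (ey, so, eya, dac, ato, elav and gl) were present, with a mean of 10.61 to 10.93 on every array. Medians of the arrays lay between 5.82 and 5.99 and their lower quartiles between 4.51 and 4.60, and a value near that quartile is called near the floor.

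The gkt probe set with the highest mean value, 1626850_s_at, separated all 6 groups. In irradiated dDP discs it was 10.08, 10.16 and 10.00, against 9.50, 9.65 and 9.66 in untreated dDP discs. In irradiated de2f1 discs it was 9.29, 9.47 and 9.26, against 8.82, 8.73 and 8.88 in untreated de2f1 discs. Irradiated wild type discs had 11.20 and 11.24, and untreated wild type discs 10.60, 10.58 and 10.69. Every mutant array was therefore below every wild type array, and within each genotype every irradiated array was above every untreated array. RNA of whole discs was measured, so fewer cells that express gkt and less gkt RNA per cell cannot be told apart. From lowest to highest the groups ran de2f1 untreated, de2f1 irradiated, dDP untreated, dDP irradiated, wild type untreated and wild type irradiated. Neighbours in that order were 0.47 to 0.60 apart in mean, except untreated dDP and irradiated de2f1 discs, whose means of 9.61 and 9.34 differed by 0.26 and whose nearest arrays were 0.03 apart, with an SD of up to 0.12 within the groups. The position of those 2 groups relative to each other is thus the least separated step of the order.

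The second probe set, 1624269_at, showed a much wider gap between genotypes. In dDP discs it was 7.44, 6.94 and 7.40 after irradiation and 6.93, 7.14 and 7.31 without. In de2f1 discs it was 7.42, 7.65 and 7.56 after irradiation and 6.97, 6.77 and 7.20 without. Irradiated wild type discs had 13.10 on array 1 and 10.67 on array 3, and untreated wild type discs 11.05, 10.89 and 11.10. All 12 mutant arrays lay between 6.77 and 7.65, and all 5 wild type arrays at 10.67 or above. Among the 4 mutant groups the arrays of each group overlapped those of its neighbour in the order of means, which differed by 0.13 to 0.28. The 2 wild type groups overlapped as well, because irradiated array 3 was below the untreated arrays and array 1 above them.

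The third probe set, 1624274_at, stayed near the floor. Its group means were 4.68 in irradiated dDP, 4.48 in untreated dDP, 4.45 in irradiated de2f1, 4.48 in untreated de2f1, 4.65 in irradiated wild type and 4.60 in untreated wild type discs. Its 17 values ran from 4.38 to 4.79, and neighbouring groups in the order overlapped throughout. At this level the probe set gives little information on gkt.

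**Figure D1:**
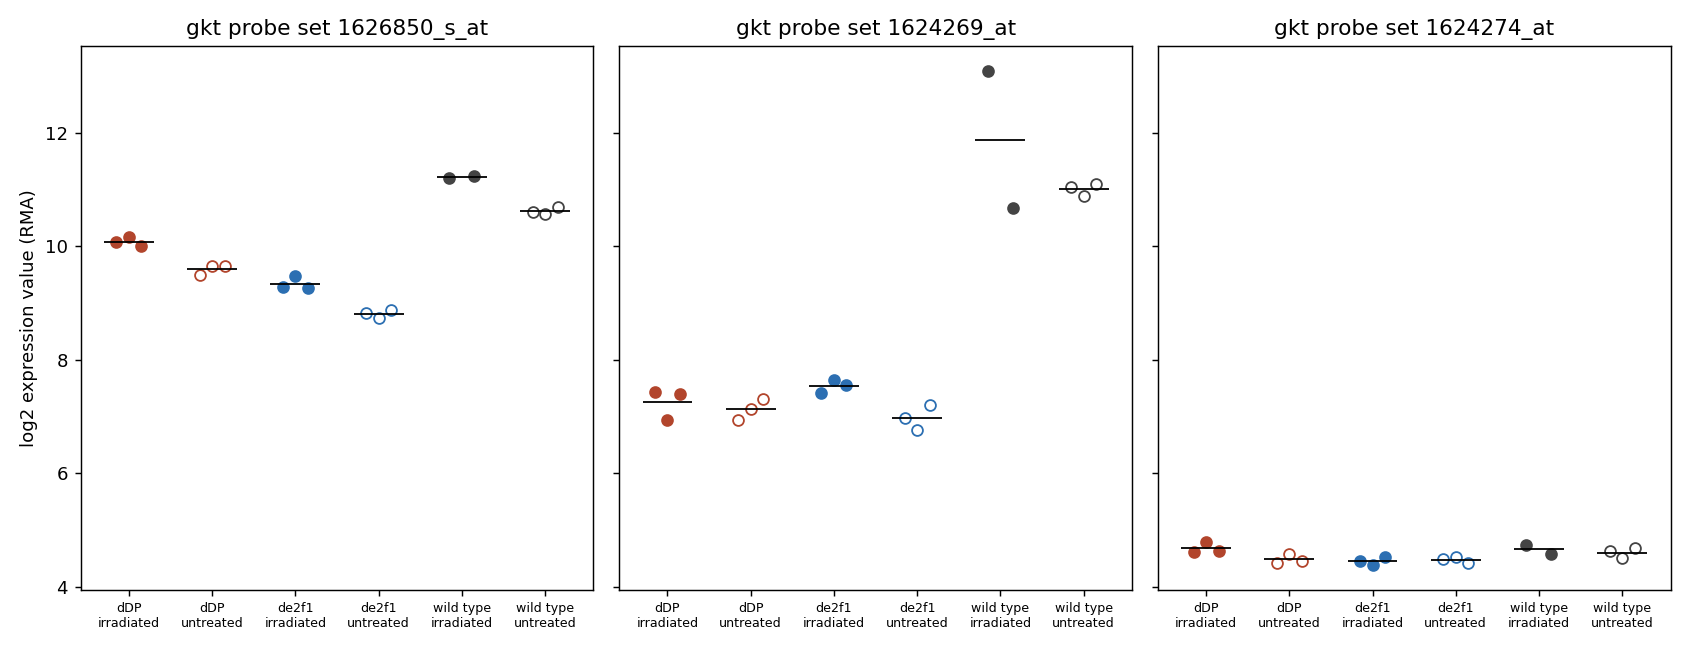
Log2 expression values (y axis, RMA) of the 3 gkt probe sets on each of 17 arrays, by group (x axis), with filled points for irradiated and open points for untreated discs and a line at each group mean. In the left panel the 6 groups do not overlap, in the middle panel the mutant arrays sit between 6.77 and 7.65 and the wild type arrays at 10.67 or above, and in the right panel all arrays lie between 4.38 and 4.79.

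The genotype differences were set out first in untreated discs. For 1626850_s_at the dDP to wild type difference was -1.02 ± 0.07 (means 9.61 ± 0.09 and 10.62 ± 0.06, SD, n = 3 each), a 2.02-fold lower signal. The same contrast for 1624269_at was -3.89 (means 7.13 ± 0.19 and 11.02 ± 0.11, SD, n = 3 each), a 14.8-fold lower signal. Its standard error was 0.41 with all arrays in the fit and 0.11 with the 6 arrays of this contrast alone, the first being raised by the spread of the irradiated wild type pair. Of all probe sets 20.7% were lower without overlap in untreated dDP than in untreated wild type discs, and 2 of the 3 gkt probe sets were among them. The third had a difference of -0.12 with overlapping arrays.

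Between untreated de2f1 and wild type discs the differences were larger for 1626850_s_at and alike in size for 1624269_at. They were -1.81 ± 0.07 for 1626850_s_at (means 8.81 ± 0.08 and 10.62 ± 0.06, SD, n = 3 each), or 3.52-fold lower, and -4.04 ± 0.41 for 1624269_at (means 6.98 ± 0.22 and 11.02 ± 0.11, SD, n = 3 each), or 16.4-fold lower. The near-floor probe set had -0.12, again with overlap. Both bright probe sets were lower without overlap, as were 15.4% of all probe sets in this contrast. In size, 10 of 18769 probe sets exceeded the 1624269_at difference in de2f1 discs, 6 of them lower like gkt, and 37 exceeded it in dDP discs, 18 of them lower. For 1626850_s_at 98 exceeded it in de2f1 and 927 in dDP discs.

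In irradiated discs the same pattern appeared. The dDP to wild type difference was -1.14 ± 0.08 for 1626850_s_at and -4.63 ± 0.45 for 1624269_at, against a background of 31.2% of probe sets lower without overlap. The de2f1 to wild type difference was -1.88 ± 0.08 and -4.34 ± 0.45 for the same probe sets, against a background of 21.7%. Each of these 4 differences came without overlap. The size for 1624269_at depended on which irradiated wild type array was kept: it was -3.41 in dDP and -3.12 in de2f1 discs without array 1, and -5.84 and -5.56 without array 3. For 1624274_at the difference was 0.02 in dDP discs with overlap and -0.20 ± 0.08 in de2f1 discs without overlap.

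The 2 bright probe sets disagreed on how the mutants compare with each other. By 1626850_s_at gkt was higher in dDP than in de2f1 discs, by 0.74 ± 0.07 after irradiation (means 10.08 ± 0.08 and 9.34 ± 0.12, SD, n = 3 each) and by 0.80 ± 0.07 without (means 9.61 ± 0.09 and 8.81 ± 0.08, SD, n = 3 each), both without overlap. Of all probe sets 17.8% were higher without overlap in the irradiated and 13.8% in the untreated contrast of these mutants. By 1624269_at the difference was -0.28 ± 0.41 after irradiation and 0.15 ± 0.41 without, and the arrays overlapped in both. With the arrays of each of these contrasts alone its standard error was 0.14. The near-floor probe set was 0.23 ± 0.07 higher in irradiated dDP than in irradiated de2f1 discs without overlap and 0.00 apart in untreated discs. The comparisons of the 2 mutants with wild type share the wild type arrays, and each is given by its own values for that reason.

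Subtracting 1626850_s_at from 1624269_at within each array put a size on the disagreement. The mean gap was -2.82 in irradiated dDP, -2.48 in untreated dDP, -1.80 in irradiated de2f1 and -1.83 in untreated de2f1 discs. It was -0.57 and 1.90 on the 2 irradiated wild type arrays and 0.31 to 0.46 on the untreated ones. The gap shows unequal change of the probe sets and sets no level of one against the other. It was more negative in dDP than in wild type discs by -3.49 ± 0.51 after irradiation and -2.87 ± 0.45 without, and in de2f1 than in wild type discs by -2.47 ± 0.51 and -2.22 ± 0.45, with no overlap of the arrays in any of these contrasts. Without irradiated wild type array 1 the irradiated values were -2.25 for dDP and -1.23 for de2f1 discs, and without array 3 they were -4.72 and -3.70, an alternative added after the values had been seen. Between dDP and de2f1 discs it differed by -1.02 ± 0.45 after irradiation and -0.65 ± 0.45 without, also with no overlap. The errors of the gap pool its spread over all groups. Its SD was 1.75 in irradiated wild type discs, which are not part of the dDP to de2f1 contrasts. It was 0.35 in irradiated dDP, 0.09 in irradiated de2f1, 0.11 in untreated dDP and 0.14 in untreated de2f1 discs. Where along the gkt transcript the probes of each set lie was not analysed here.

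**Figure D2:**
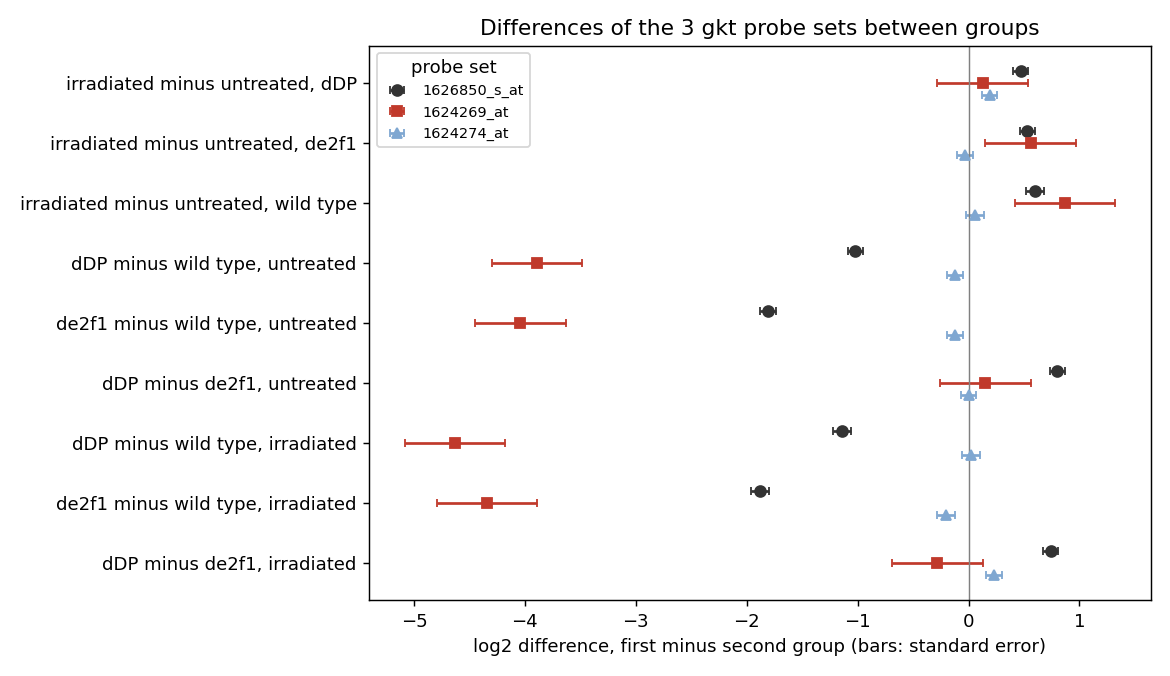
Log2 differences (x axis, first minus second group) of the 3 gkt probe sets in 9 contrasts (y axis), with bars for the standard error of the fit over all 17 arrays. The 1624269_at points lie at -3.89 to -4.63 in all 4 contrasts of a mutant with wild type, and the 1626850_s_at points at -1.02 to -1.88.

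By 1626850_s_at gkt was higher in irradiated than in untreated discs of every genotype. The irradiated to untreated difference was 0.47 ± 0.07 in dDP discs (means 10.08 ± 0.08 and 9.61 ± 0.09, SD, n = 3 each), 0.53 ± 0.07 in de2f1 discs (means 9.34 ± 0.12 and 8.81 ± 0.08, SD, n = 3 each) and 0.60 ± 0.08 in wild type discs (means 11.22 ± 0.03 with n = 2 and 10.62 ± 0.06 with n = 3, SD). The arrays did not overlap in any of these genotypes, and of all probe sets 8.75% in dDP, 9.1% in de2f1 and 15.2% in wild type discs were likewise higher without overlap. The irradiation step differed by -0.12 ± 0.10 between dDP and wild type, by -0.06 ± 0.10 between de2f1 and wild type and by -0.06 ± 0.10 between dDP and de2f1 discs. These 3 values are close to or below their standard errors. Irradiated mutant discs were still below untreated wild type discs, by 0.54 in the mean for dDP.

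By 1624269_at the irradiation step ran from 0.13 to 0.87 with larger errors. It was 0.13 ± 0.41 in dDP discs with overlapping arrays (means 7.26 ± 0.28 and 7.13 ± 0.19, SD, n = 3 each). From the dDP arrays alone its standard error was 0.16. In de2f1 discs the step was 0.56 ± 0.41 without overlap (means 7.54 ± 0.12 and 6.98 ± 0.22, SD, n = 3 each), with a standard error of 0.12 from the 6 de2f1 arrays alone. In wild type discs it was 0.87 ± 0.45 with overlap (means 11.89 ± 1.72 with n = 2 and 11.02 ± 0.11 with n = 3, SD), and it was -0.35 without irradiated array 1 and 2.09 without irradiated array 3. The direction of the wild type value hung on that 1 array. The differences of the irradiation step between genotypes were -0.74 ± 0.61 for dDP minus wild type, -0.30 ± 0.61 for de2f1 minus wild type and -0.43 ± 0.57 for dDP minus de2f1. The first of these turned to 0.48 and the second to 0.91 without irradiated wild type array 1. The last, dDP minus de2f1, had a standard error of 0.22 with the arrays of that contrast alone. The near-floor probe set differed by 0.19 ± 0.07 in dDP discs without overlap, and by -0.03 in de2f1 and 0.06 in wild type discs with overlap. Of all probe sets 8.75% in dDP and 9.1% in de2f1 discs were higher without overlap after irradiation.

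The 2 irradiated wild type arrays stood further apart in 1624269_at than in most of the table. Array 1 exceeded array 3 by 2.43, and no other of 18769 probe sets was higher on array 1 by more, although 14 differed by more in size and 26 differed by more than log2 2 in either direction. The next in that order were glue protein genes of the salivary gland and another marker of that tissue, Eig71Ee: Sgs4 by 2.18, Sgs8 by 2.02, Eig71Ee by 1.98 and Sgs5 by 1.96. By 1626850_s_at the same pair read 11.20 and 11.24. The mean of 8 salivary gland markers was 12.94 on irradiated wild type array 1 and 11.34 on array 3. It was 10.80, 12.93 and 12.20 on the untreated wild type arrays, of which array 2, with the highest marker mean, had the lowest 1624269_at value of its group (10.89).

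The salivary gland markers varied within most mutant groups and were low on every untreated dDP array, in which gkt was also below wild type. Their mean was 6.59, 12.77 and 13.51 in irradiated dDP, 6.10, 6.07 and 5.80 in untreated dDP, 12.77, 12.06 and 10.85 in irradiated de2f1 and 6.80, 13.27 and 12.09 in untreated de2f1 discs. Irradiated dDP array 3 and untreated de2f1 array 2 had the highest marker means of all arrays, and their 1624269_at values were 7.40 and 6.77. With the marker mean as a covariate the untreated dDP to wild type difference of 1624269_at was -3.85 ± 0.59. That of 1626850_s_at was -1.04 ± 0.10, and its irradiation difference in dDP discs was 0.49 ± 0.09. Marker means of untreated dDP (5.80 to 6.10) and untreated wild type arrays (10.80 to 12.93) did not overlap. The adjusted genotype differences thus extend a slope fitted within groups across that gap. The 3 measured fat body markers averaged 9.25 to 11.48 in irradiated dDP, 7.88 to 13.42 in untreated dDP, 6.25 to 9.95 in irradiated de2f1, 6.12 to 12.23 in untreated de2f1, 6.99 to 7.94 in irradiated wild type and 5.99 to 7.11 in untreated wild type discs. The 7 hemocyte markers averaged 7.84 to 8.31 in irradiated dDP, 8.17 to 8.66 in untreated dDP, 9.05 to 9.31 in irradiated de2f1, 9.24 to 9.93 in untreated de2f1, 8.80 to 8.82 in irradiated wild type and 8.86 to 9.19 in untreated wild type discs. The part of salivary gland, fat body and hemocyte RNA in the gkt differences was not tested.

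**Figure D3:**
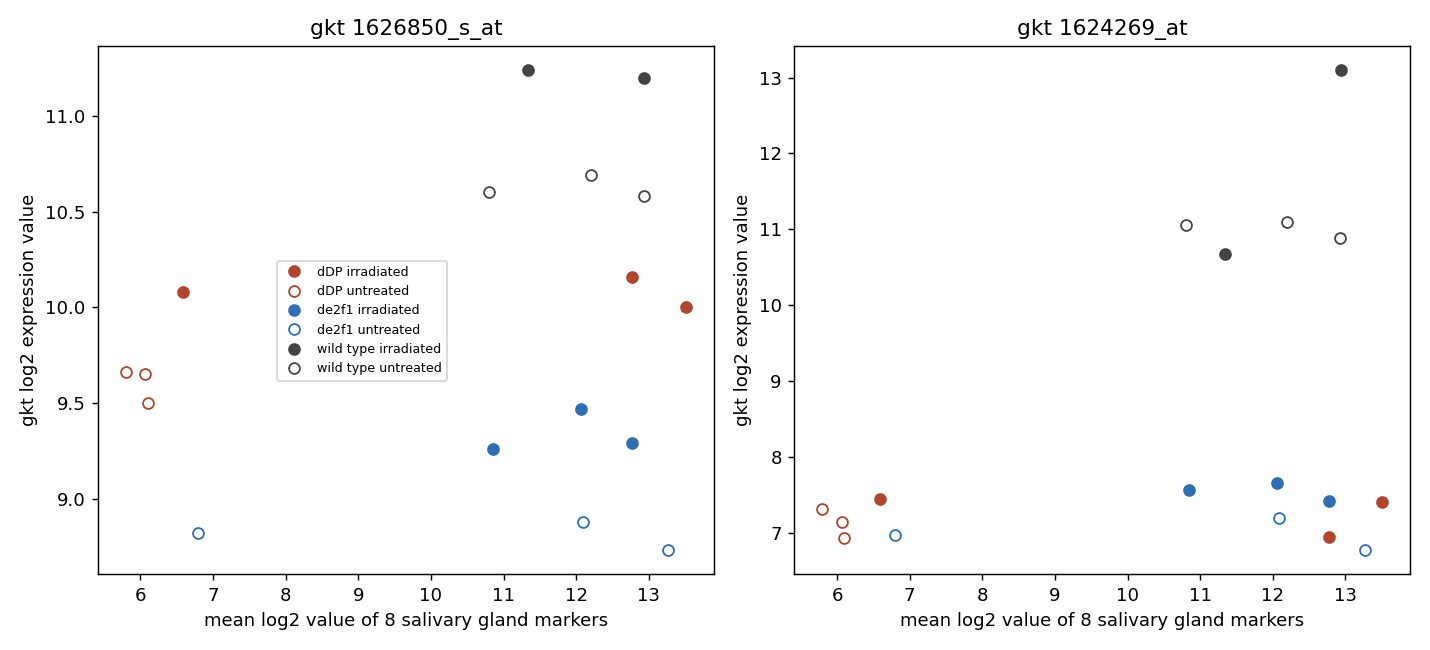
Log2 values of gkt (y axes, 1626850_s_at left and 1624269_at right) against the mean log2 value of 8 salivary gland markers (x axes) on each of 17 arrays, coloured by genotype and filled where irradiated. Mutant arrays reach marker means of 13.51 with 1624269_at at 7.65 or below, while the irradiated wild type arrays at 12.94 and 11.34 read 13.10 and 10.67.

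The genes beside gkt on the chromosome were looked up after the gkt values had been seen. Mad, the transcription factor of Dpp signalling and the nearest gene on one side, differed by -0.17 ± 0.07 in untreated dDP and -0.17 ± 0.07 in untreated de2f1 against wild type discs and did not pass in either (limma, Benjamini-Hochberg adjusted p = 0.0818 and 0.156). ND-B14.5B, a subunit gene of respiratory complex I beyond Mad, differed by -0.04 and 0.02 (adjusted p = 0.785 and 0.92). On the other side Hydr2 was the nearest gene with a probe set, and it rose in untreated dDP discs by 0.46 ± 0.07 (adjusted p = 0.00011) and differed by -0.11 ± 0.07 in de2f1 discs (adjusted p = 0.419). Further out, the 2 probe sets of CG44002 also disagreed: 1633192_at fell by -0.77 ± 0.14 in dDP and -0.60 ± 0.14 in de2f1 discs (adjusted p = 0.00075 and 0.0135), while 1625298_at differed by -0.01 and 0.07 (adjusted p = 0.925 and 0.59). CG34393, further out on that side, passed as lower in untreated dDP discs by 1628661_at, a probe set near the floor (-0.22 ± 0.06, adjusted p = 0.0205), and its other 2 probe sets did not pass (-0.03 and -0.08, adjusted p = 0.879 and 0.611). Of all probe sets 12.1% rose and 15.9% fell in untreated dDP, and 3.89% rose and 5.1% fell in untreated de2f1 discs by this test. No neighbour with a probe set differed from wild type by as much as 1624269_at, the closest being CG15404 and CG31698 in dDP discs (-2.91 ± 1.59 and -2.74 ± 1.73, adjusted p = 0.211 and 0.287). Both exceeded in size the -1.02 of 1626850_s_at in untreated dDP discs. The CG15404 arrays were lower without overlap there, as were 20.7% of all probe sets, and those of CG31698 overlapped.

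**Figure D4:**
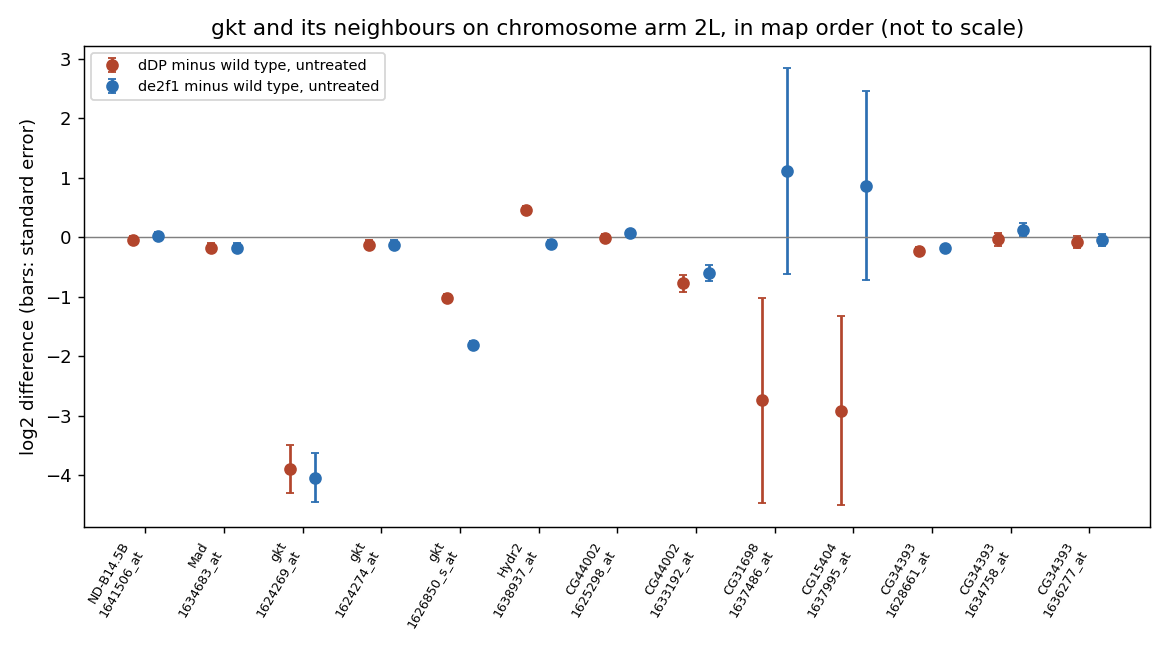
Log2 differences from untreated wild type discs (y axis, bars for standard errors) of gkt and neighbouring genes with a probe set, in map order along chromosome arm 2L (x axis), for untreated dDP and de2f1 discs. Mad and ND-B14.5B lie within 0.17 of 0, and CG31698 and CG15404 have wide error bars. The bright gkt probe sets lie at -1.02 to -4.04 and 1624274_at at -0.12 in both mutants.

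The genes whose 6 group means most resembled those of each gkt probe set were found by the root mean square distance between centred means, out of 11981 genes. Closest to 1626850_s_at were CG10918 (0.214), CG11668 (0.226), CG8087 (0.252), the serpin gene Spn47C (0.263), CG11529 (0.264), CG8630 (0.277), the antimicrobial peptide gene CecB (0.279) and CG7768 (0.296). Only 2 genes came within 0.25 of it and 74 within 0.50. Resemblance of means hid spread in some. The closest gene, CG10918, varied with an SD of up to 1.65 within a group and CG8087 of up to 3.43, whereas Spn47C varied by 0.26 or less. Spn47C averaged 10.30 in irradiated and 10.06 in untreated dDP and 9.91 in irradiated and 9.58 in untreated de2f1 discs. In wild type discs it averaged 11.17 after irradiation and 10.88 without. Its order of genotypes was that of gkt, by whose group means it was chosen. Ranked by Pearson correlation over all arrays in place of distance, 2 of the 8 genes, CG11668 and Spn47C, were again among the first 8.

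For 1624269_at a single gene lay within 0.50, the ionotropic receptor gene Ir76a at 0.306, followed by CG6912 (0.531) and CG15772 (0.603). Ir76a averaged 4.58 in irradiated dDP, 4.68 in untreated dDP, 4.57 in irradiated de2f1 and 4.75 in untreated de2f1 discs, near the floor, against 9.04 in irradiated and 8.87 in untreated wild type discs. CG15772 averaged 5.02 in irradiated dDP, 5.13 in untreated dDP, 4.23 in irradiated de2f1 and 4.40 in untreated de2f1 discs, against 9.46 in irradiated and 9.70 in untreated wild type discs. Both were chosen for means near those of 1624269_at, and like it were low in all 4 mutant groups. The irradiated wild type arrays of Ir76a, 9.03 and 9.05, did not differ as those of gkt did. For the flat 1624274_at, 1662 genes lay within 0.10, Rbp (0.0204), CG11755 (0.0259) and rols (0.0262) being nearest, and the distance singles out no gene.

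gkt was set beside 10 measured genes of 13 listed for topoisomerase adducts and single-strand break repair, and Top2, Lig3 and CG9601 of that list were not analysed here. After irradiation XRCC1, the scaffold protein of single-strand break repair, rose in each genotype. XRCC1 read 9.21, 9.30 and 9.32 in irradiated against 8.51, 8.68 and 8.89 in untreated dDP discs, and 9.57 and 9.46 in irradiated against 8.93, 8.69 and 8.85 in untreated wild type discs. Its differences were 0.59 ± 0.09 in dDP, 0.48 ± 0.09 in de2f1 and 0.70 ± 0.10 in wild type discs (limma, Benjamini-Hochberg adjusted p = 0.00128, 0.0119 and 0.00085), beside 0.47, 0.53 and 0.60 for gkt by 1626850_s_at. By 1624269_at gkt differed by 0.13, 0.56 and 0.87 in these genotypes, the last being -0.35 without irradiated wild type array 1. The abasic site endonuclease gene Rrp1 fell in each genotype, by -0.25 ± 0.04, -0.25 ± 0.04 and -0.48 ± 0.05 (adjusted p = 0.00287, 0.00659 and 3.6e-05). The other 8 listed genes did not pass in any genotype, among them Top1, the enzyme whose trapped form gkt resolves (0.10, -0.12 and 0.04, adjusted p = 0.49, 0.685 and 0.937), and Parp1 was near the floor with group means of 3.93 to 4.27. DNAlig1 passed as lower under some alternatives, in dDP discs with array weights (-0.22, adjusted p = 0.0112) and without untreated array 1 (-0.22, 0.00756), against -0.13 with all arrays (0.277), and in wild type discs with array weights (-0.26, 0.0111) and without the dimmest 40% of probe sets (-0.26, 0.0494), against -0.26 with all probe sets (0.0825). The list median was 0.01 in dDP, -0.07 in de2f1 and -0.07 in wild type discs, beside medians over all probe sets of -0.03, -0.01 and -0.00. Of all probe sets 4.45% rose and 4.38% fell in dDP, 1.37% rose and 0.927% fell in de2f1 and 2.59% rose and 1.92% fell in wild type discs. In dDP discs neither call was made with the 6 arrays of the contrast alone (adjusted p = 0.0618 for XRCC1 and 0.17 for Rrp1). The dDP call of Rrp1 was also lost with the salivary marker mean as a covariate (-0.20, adjusted p = 0.0644). Marker means were 6.59 to 13.51 on irradiated and 5.80 to 6.10 on untreated dDP arrays. The difference of Rrp1 was -0.21 without untreated dDP arrays 2 and 3, which leaves untreated array 1 alone. The cause of these shifts was not tested. In de2f1 discs the XRCC1 call was lost without untreated array 2 (0.0631) or irradiated array 2 (0.0699) and the Rrp1 call with arrays centred on their medians (0.0841).

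In untreated dDP discs the listed genes that passed were higher than in wild type, whereas the bright gkt probe sets were lower. Of the 10 genes 5 rose and 0 fell (limma; 8 at an unadjusted p under 0.05 in either direction), with a list median of 0.27 beside -0.01 over all probe sets, of which 12.1% rose and 15.9% fell. The DNA-protein crosslink protease gene mh read 9.25, 9.22 and 9.35 in untreated dDP against 7.69, 7.59 and 7.66 in untreated wild type discs, a rise of 1.63 ± 0.08 (limma, Benjamini-Hochberg adjusted p = 3.6e-09). The topoisomerase gene Top3alpha rose by 0.86 ± 0.05, the replicative ligase gene DNAlig1 by 0.76 ± 0.07, Rrp1 by 0.33 ± 0.04 and the adenylate-removing end repair gene Aptx by 0.24 ± 0.07 (adjusted p = 9.4e-09, 1.4e-06, 7.0e-05 and 0.0148). The Aptx call was lost under 4 alternatives, for example with arrays centred on their medians (0.152). In untreated de2f1 discs Aptx alone of the 10 passed, rising by 0.36 ± 0.07 (adjusted p = 0.00275), and the list median was -0.01 beside 0.00. Top1 differed by -0.20 ± 0.08 in dDP and -0.02 ± 0.08 in de2f1 discs (adjusted p = 0.0819 and 0.937), and the dDP value passed in 4 alternatives (0.0129 to 0.0498).

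Genes of end resection and end joining, all 11 of the list measured, mostly rose after irradiation. Of the 11, 7 rose in dDP, 7 in de2f1 and 8 in wild type discs, and the medians were 0.84, 1.00 and 1.33. Over all probe sets 4.45%, 1.37% and 2.59% rose in these genotypes, with medians of -0.03, -0.01 and -0.00. With the arrays of each contrast alone 6, 6 and 8 of the 11 rose by limma. Irbp, the fly Ku70 gene, rose by 1.19 ± 0.13 in dDP, 1.78 ± 0.13 in de2f1 and 2.16 ± 0.14 in wild type discs (limma, Benjamini-Hochberg adjusted p = 4.7e-05, 1.8e-06 and 5.5e-07). Its partner Ku80 rose by 1.32, 1.49 and 2.00, the ligase gene DNAlig4 by 1.15, 1.01 and 1.33 and CG3448, listed as Xrcc4, by 1.61, 1.71 and 2.34. The resection genes mre11 and rad50 rose by 0.87 and 0.71 in dDP, 1.23 and 1.00 in de2f1 and 1.92 and 1.39 in wild type discs, and CG12728, listed as Xlf, by 0.84, 0.62 and 0.81. nbs, their complex partner, passed in wild type discs (0.61 ± 0.15, adjusted p = 0.0319), a call lost without any 1 of the 5 wild type arrays (0.0738 to 0.252). The DNAlig4 call in dDP discs was lost with the arrays of the contrast alone (0.0509). The CG12728 call in de2f1 discs was lost without any 1 array except untreated array 1 (limma adjusted p = 0.055 to 0.156). In dDP discs its difference was 0.62 without untreated arrays 2 and 3 together. In wild type discs it was 0.84 without irradiated array 1 and 0.78 without irradiated array 3. Each of these last fits leaves 1 array in a group. In untreated dDP discs 7 of the 11 rose against wild type, where 12.1% of all probe sets rose. Among the 7 were CG3448 (0.60 ± 0.20, limma adjusted p = 0.0348) and Ku80 (0.61 ± 0.12, adjusted p = 0.00109). Without untreated dDP arrays 2 and 3, which leaves array 1 alone in that group, their differences were 0.03 and 0.35. The CG3448 call was lost under 7 other alternatives. In untreated de2f1 discs mre11 alone rose (0.41 ± 0.08, adjusted p = 0.00586). By 1626850_s_at gkt differed from wild type by -1.02 in untreated dDP and -1.81 in untreated de2f1 discs. The irradiation step of mre11 and rad50 was smaller in dDP than in wild type discs by the test of that difference (-1.04 ± 0.12 and -0.67 ± 0.10, limma, Benjamini-Hochberg adjusted p = 0.00172 and 0.00993), which 0.0906% of all probe sets passed in that direction, and the rad50 call was lost without irradiated wild type array 1 or 3 (0.0741 and 0.0603). The same difference for gkt was -0.12 ± 0.10 by 1626850_s_at and -0.74 ± 0.61 by 1624269_at, the second being 0.48 without irradiated wild type array 1. Means of mre11 were 10.96 in untreated and 11.84 in irradiated dDP discs, against 9.66 and 11.58 in wild type discs. Those of rad50 were 11.05 and 11.76 in dDP discs, against 9.86 and 11.25 in wild type discs.

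**Figure D5:**
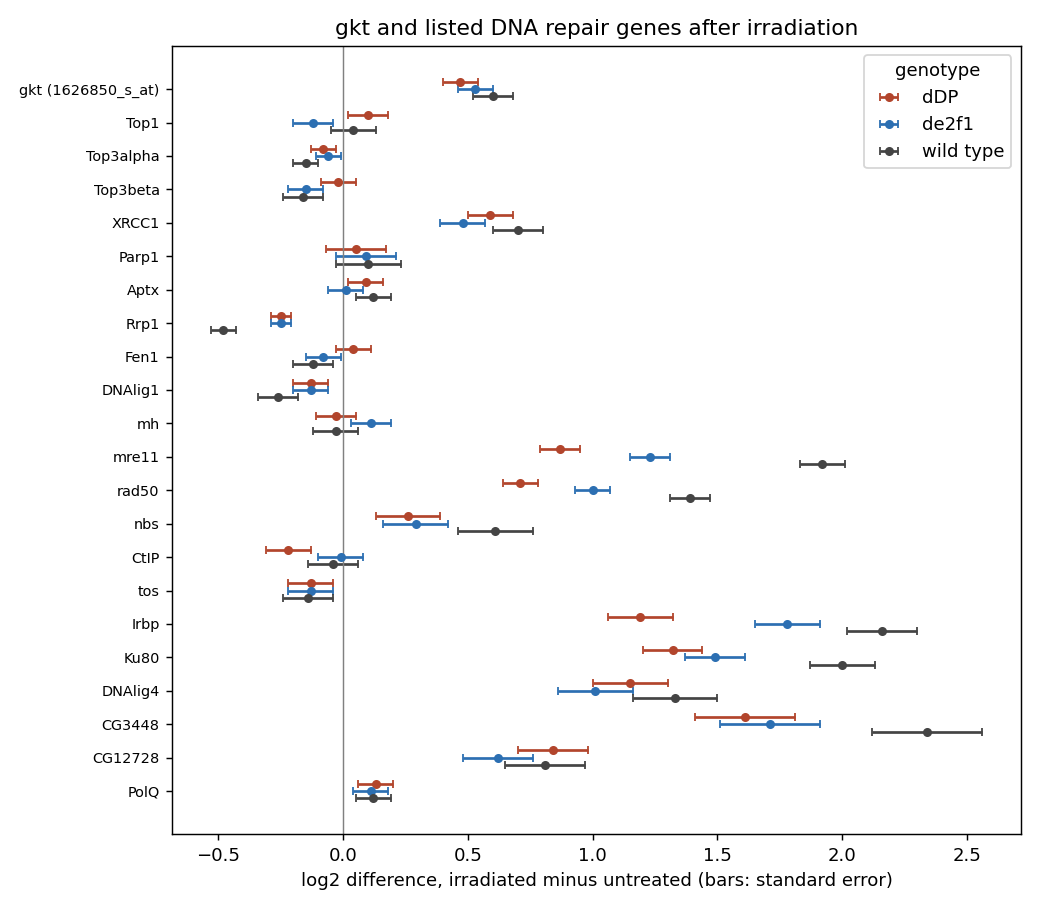
Log2 differences between irradiated and untreated discs (x axis, bars for standard errors) of gkt by 1626850_s_at and of 21 listed DNA repair genes (y axis) in dDP, de2f1 and wild type discs. The gkt values of 0.47 to 0.60 lie beside those of XRCC1 (0.48 to 0.70), below those of Irbp (1.19 to 2.16) and above those of Top1 (-0.12 to 0.10).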

How the data were processed

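Total RNA (50 ng per sample) was labelled for Affymetrix Drosophila Genome 2.0 arrays, and the deposited log2 values, 1 per probe set and array, come from RMA (per the submitters' processing notes, which name no version). Of 18952 rows 183 controls were left out. Of the remaining 18769 probe sets, 13647 carry 1 gene symbol in the platform annotation (11982 genes), 402 several and 4720 none. Array values carry no read depth, so the number of arrays limits precision. The values were used without further scaling. Group means were modelled together on the 17 arrays in R 4.3.3, using lmFit and eBayes of limma 3.58.1, and p-values were adjusted by Benjamini-Hochberg over 18769 probe sets with a threshold of 0.05. They set each difference of means against the spread between these samples, pooled over the groups. The code was tested on simulated data. Listed genes with several probe sets were read from the one with the highest mean.

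The gene gkt, the gene lists and the tests were chosen with earlier results of these data known. Named genes are all gkt probe sets, the 8 genes nearest in group means to the brightest gkt probe set and the 3 nearest to each other one, all genes of the first repair list, genes of the second called after irradiation in any genotype, and Dp. The neighbours, Aptx and the other genes named for untreated genotype contrasts are from the chromosome map and these lists. Alternatives were quantile normalization, arrays centred on medians, array weights, trended or robust priors, leaving out the 40% dimmest probe sets, each array in turn or untreated dDP arrays 2 and 3 together, a fit to just the arrays in the contrast, a block for replicate number, and the salivary gland marker mean as a covariate. The alternative without untreated dDP arrays 2 and 3 left 1 array in that group, as did leaving out either irradiated wild type array in its group. Python 3.11.15, pandas 2.3.3 and matplotlib 3.10.9 made the tables and figures.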

Additional observations from a re-analysis of the deposited data

Results flagged for a closer look

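The response to irradiation of 2 genes of end resection differed between dDP and wild type discs by the test of that difference. For mre11 the irradiation difference was -1.04 ± 0.12 smaller in dDP than in wild type discs (limma, Benjamini-Hochberg adjusted p = 0.00172). For rad50 it was -0.67 ± 0.10 (adjusted p = 0.00993), a call lost without irradiated wild type array 1 (0.0741) or 3 (0.0603) and with the arrays of the contrast alone (0.124). Of all probe sets 0.0906% passed as lower in this contrast. Irbp differed by -0.97 there, and mre11 by -0.68 between de2f1 and wild type discs. Neither passed (limma adjusted p = 0.0699 and 0.101), but both did with array weights (0.00413 and 0.00917). Medians of the end joining list were -0.34 in dDP and -0.32 in de2f1 discs, beside -0.02 and -0.01 over all probe sets. For mre11 and rad50 the dDP means were above wild type in both treatments. mre11 averaged 10.96 in untreated and 11.84 in irradiated dDP discs, against 9.66 and 11.58 in wild type discs. rad50 averaged 11.05 and 11.76 in dDP discs, against 9.86 and 11.25 in wild type discs. The irradiation difference of gkt, dDP minus wild type, was -0.12 ± 0.10 by 1626850_s_at and -0.74 ± 0.61 by 1624269_at. The second value was 0.48 without irradiated wild type array 1.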

How the results depend on the processing

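Of 450 alternative values of the gkt differences, 20 moved by more than the spread between replicates and 1 difference larger than that spread reversed. Leaving out 1 array gave 245 values within that spread, 9 that moved and the reversal. For 1626850_s_at the differences ran, with 1 array left out, from 0.42 to 0.51 (irradiation in dDP), 0.47 to 0.57 (in de2f1), 0.57 to 0.63 (in wild type), -1.05 to -0.97 and -1.85 to -1.77 (untreated dDP and de2f1 against wild type). For 1624269_at they ran from -0.35 to 2.09 (irradiation in wild type), -5.84 to -3.41 and -5.56 to -3.12 (irradiated dDP and de2f1 against wild type), and, for the difference of irradiation from wild type, -1.95 to 0.48 in dDP, which reversed at 0.48 without irradiated wild type array 1, and -1.52 to 0.91 in de2f1 discs. The values of -0.35 and 0.91, both without that array, also changed sign. Leaving out untreated dDP arrays 2 and 3 together kept array 1 alone in that group. For 1626850_s_at it gave 0.58 (irradiation in dDP), -1.12 (untreated dDP minus wild type) and 0.69 (untreated dDP minus de2f1). The irradiation differences of 1626850_s_at were then -0.02 (dDP minus wild type) and 0.05 (dDP minus de2f1). For 1624269_at it gave -4.08 (untreated dDP minus wild type). With arrays centred on their medians, 1626850_s_at gave -1.22 in irradiated and -1.10 in untreated dDP discs against wild type, and 1624274_at gave -0.20 (untreated dDP minus wild type) and -0.07 (untreated dDP minus de2f1). With array weights 1624274_at gave 0.14 for the irradiation difference of dDP minus de2f1. Of the 2 genes called after irradiation in the first repair list, 1 was called in de2f1 discs with centred arrays, and 1 to 2 with 1 array left out. In dDP discs 2 to 3 were called with 1 array left out. With the salivary covariate XRCC1 alone was called there (1), Rrp1 being lost. With the contrast's arrays alone, where fewer samples were fitted, 0 were called by limma (2 at an unadjusted p under 0.05). The cause of the other shifts was not tested. Deviations of 40 same-numbered pairs from their group means correlated at -0.395 to 0.459, 7 of them over 0.1. Pairs with different numbers were not compared, so whether the replicate number marks a shared batch was not tested. With the replicate number as a block, gkt by 1626850_s_at differed by 0.61 after irradiation in wild type discs and by -1.02 in untreated dDP against wild type discs, and CG12728 in de2f1 discs had a limma adjusted p of 0.0514.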
